A study of Rattus norvegicus with 24 samples.

Results

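The genes described here encode osteopontin, vitronectin and other proteins that build, bind or remodel the extracellular matrix of the heart: Spp1, Vtn, Fn1, Cd44, Sparc, Timp1, Timp2, Mmp2 and Serpine2. Every probe set that the array annotation assigned to 1 of these 9 symbols was taken, whatever its values, which gave 21 of the 8740 probe sets on the array that were not controls. They were measured in RNA from the left ventricle of Dahl salt-sensitive rats, a strain whose blood pressure climbs on dietary salt. High salt rats ate chow with 6% NaCl from 6 weeks of age, as a model of pathologic hypertrophy. Exercised rats began daily treadmill running at that age, as a model of physiologic hypertrophy: the programme lasted 6 weeks, and after a ramp of 3 weeks it ran at 16 m/min, a 5 degree incline and 90 min a day. Controls were sedentary, of matched age and on normal chow, and all 3 kinds of rat carried the salt-sensitive background. The sample titles gave 3 arrays each for high salt at 3, 6 and 15 weeks, exercise at 3 and 6 weeks and control at 3, 6 and 15 weeks. The starting point of those weeks is not given in the labels, so the age at collection is not settled, and neither the sex of the rats nor whether each array had its own animal is stated. The p-values below therefore measure the spread between these arrays, which may be technical.

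Values are intensities as deposited, on a linear scale that had been set to a common level across arrays. A change is a log2 fold change with its SE, estimated by limma on log2(intensity + 40), a scale that understates changes of dim probe sets. They come from 1 model over the arrays of all groups, and a call means a Benjamini-Hochberg adjusted p under 0.05 over all 6555 tested probe sets. Of the 24 columns, 2 labelled exercise at 3 weeks repeated 2 labelled control at 3 weeks value for value, so there were 22 distinct arrays. Those 2 arrays under both labels were left out of the fit of 20 arrays and used only in the 3-week salt comparison, as arrays without high salt. The controls of 6 weeks stood apart in the ratio of 3' to 5' signal of the GAPDH control transcript, a sign of RNA integrity, with 1.58, 2.48 and 3.99. That ratio was 1.09 to 1.58 in the controls of 15 weeks and 0.989 to 1.18 in the 16 arrays of all other groups. Markers of the ventricle were present on every array: the summed intensity of 11 cardiomyocyte genes was between 216036 and 365735 per array. Of the 21 probe sets, 18 passed a filter on low mean intensity, and at least 1 passed for each of the 9 genes.

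Matrix proteins of this kind act both as scaffold and as signal. Osteopontin and vitronectin are soluble or matrix-bound ligands that cells grip through integrins, fibronectin forms the fibrils on which collagen is laid down, and CD44 is a cell-surface receptor for hyaluronan that also binds osteopontin. SPARC binds collagen and takes part in the assembly of its fibrils, gelatinase A (Mmp2) cuts denatured and basement membrane collagen, and the TIMP proteins and the serpin protease nexin-1 (Serpine2) hold proteases in check. Osteopontin is low in the healthy adult heart and is known to be made by macrophages and other cells of the injured or overloaded one, while most vitronectin in the body comes from the liver.

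Promoter sequences are shown for Spp1, Vtn and Sparc, the genes whose probe sets moved furthest in hearts on high salt, so that the window around each start can be compared. RefSeq promoters of build GRCr8 were at hand for 7 of the 9 genes, and each window runs from 250 bases before the annotated start to 50 bases after it, 5′ to 3′ on the strand of the gene. Capitals mark matches to TATAAA or GGGCGG.
Spp1 (chr14:5619755-5620054, minus strand): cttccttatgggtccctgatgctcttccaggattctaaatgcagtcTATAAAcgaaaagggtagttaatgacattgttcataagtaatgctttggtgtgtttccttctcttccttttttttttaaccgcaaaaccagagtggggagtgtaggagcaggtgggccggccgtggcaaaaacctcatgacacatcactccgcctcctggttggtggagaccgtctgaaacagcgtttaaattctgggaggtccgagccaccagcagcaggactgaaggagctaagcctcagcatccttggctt
Vtn (chr10:63892532-63892831, plus strand): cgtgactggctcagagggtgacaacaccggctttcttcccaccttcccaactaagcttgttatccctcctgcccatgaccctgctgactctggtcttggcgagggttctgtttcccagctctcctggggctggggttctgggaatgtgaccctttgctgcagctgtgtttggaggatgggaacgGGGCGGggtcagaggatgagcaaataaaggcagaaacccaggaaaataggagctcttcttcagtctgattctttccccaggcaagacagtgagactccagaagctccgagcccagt
Sparc (chr10:40038767-40039066, minus strand): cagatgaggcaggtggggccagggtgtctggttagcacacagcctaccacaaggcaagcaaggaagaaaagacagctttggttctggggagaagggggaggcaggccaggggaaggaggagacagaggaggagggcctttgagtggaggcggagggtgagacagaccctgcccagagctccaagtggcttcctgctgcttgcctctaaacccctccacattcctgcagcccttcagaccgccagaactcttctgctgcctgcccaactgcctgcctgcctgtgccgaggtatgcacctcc
Motifs of 5 kinds were searched on both strands, and shares are of 33469 promoter windows of the same length. In Spp1 the TATA box letters TATAAA, which 14.2% of those windows hold, lay on the gene's strand with its first base at -204 from the start, and in Vtn the GC box letters GGGCGG, which 33.1% hold, lay on the gene's strand at -66. The AP-1 letters TGANTCA, held by 7.33% of windows, were in none of the 3 promoters shown. The same was true of the CCAAT box, spelled CCAAT and held by 37.5%, and of the E-box letters CACGTG, held by 6.42%. The Sparc window held none of the 5. These matches describe letters only.

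The clearest changes were in the high salt hearts of 15 weeks. There Spp1 rose, Vtn fell, 3 of 4 Sparc probe sets fell and 1 of 4 tested Fn1 probe sets rose against controls of 15 weeks, while no probe set of Cd44, Timp1, Timp2, Mmp2 or Serpine2 passed the test. In all, 6 of the 18 tested probe sets were called, 2 higher and 4 lower, beside 7.2% of all tested probe sets (3.28% higher and 3.92% lower). The 18 had a median log2 fold change of -0.23, against -0.04 over all tested probe sets. The Fn1 probe set among the 6 passed the intensity filter only with the 15-week salt arrays included, so its place in that count rests on the arrays tested.

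At 6 weeks 3 probe sets were called lower in high salt than in control hearts, beside 14.4% of all tested probe sets (6.64% higher and 7.73% lower). The same number was called lower in exercised than in control hearts, beside 7.83% (4.47% higher and 3.36% lower). All of them were probe sets of Sparc, and both comparisons share the 6-week controls. Between high salt and exercised hearts of 6 weeks no probe set of these genes was called, beside 0.0153% of all tested probe sets. An unadjusted limma p under 0.05 was found for 2 of the 18, and for 462 of all 6555 tested. No member was called between high salt hearts and the 4 arrays without high salt at 3 weeks (background 0.153%, of which 0.137% higher and 0.0153% lower). There 3 of the 18 had an unadjusted limma p under 0.05, as had 528 of all 6555 tested. The members' medians were 0.0070 for high salt against control at 6 weeks, -0.32 for exercise against control and 0.12 for high salt against arrays without salt at 3 weeks, beside -0.15, -0.12 and -0.05 over all probe sets.

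**Figure D1:**
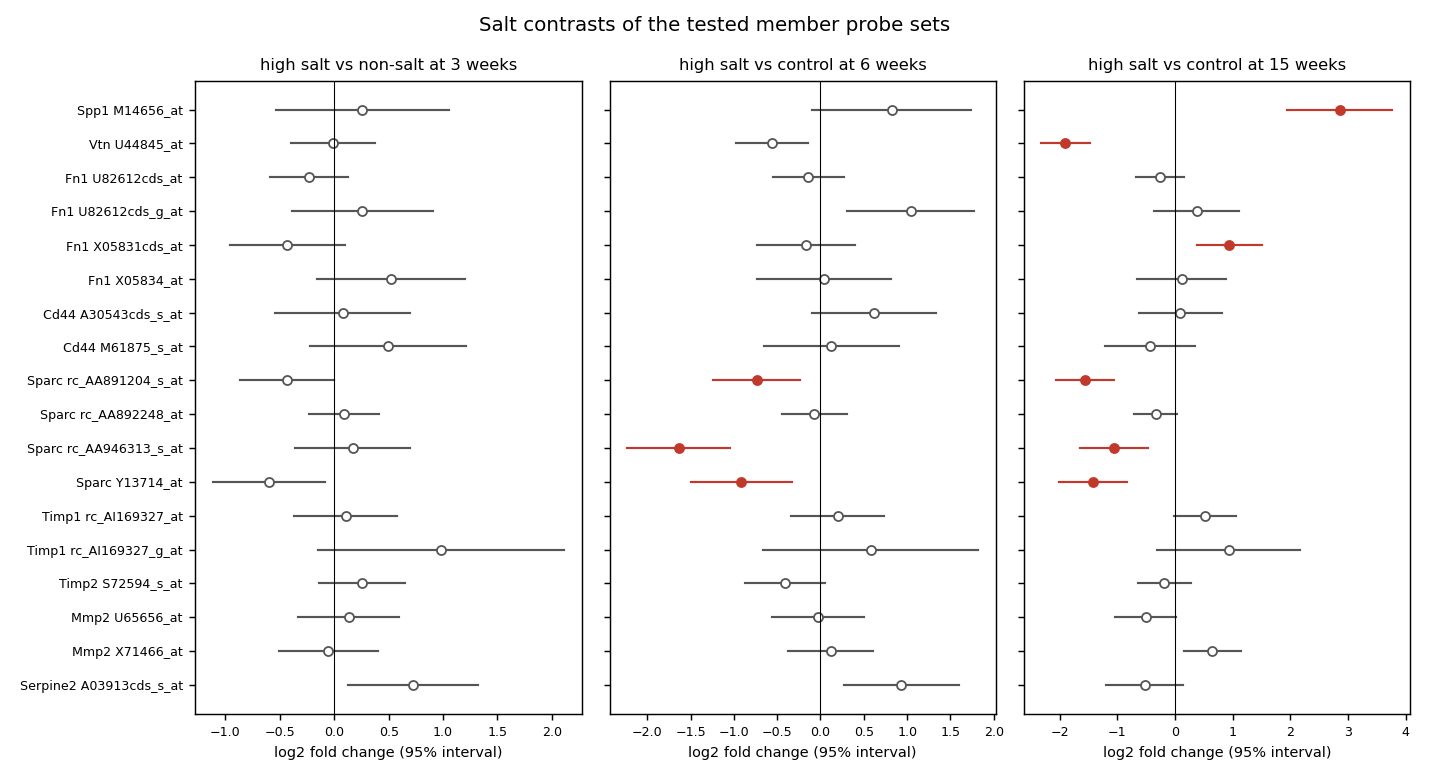
Log2 fold change on the horizontal axis with its 95% interval from limma for the 18 tested probe sets, high salt against arrays without salt at 3 weeks (left) and against control at 6 weeks (middle) and 15 weeks (right); red filled points passed the test and open points did not. None passed at 3 weeks, 3 of Sparc passed at 6 weeks, and at 15 weeks Spp1 lay at 2.85 and Vtn at -1.90, on opposite sides of 0.

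Spp1, which encodes osteopontin, was measured by M14656_at. Its intensity was 798, 339.8 and 1273 on the 3 arrays of high salt at 15 weeks, against 51.3, 66.6 and 74.3 on the 15-week control arrays. Every salt array stood far above every control array, and the log2 fold change was 2.85 ± 0.44 (limma, adjusted p = 0.000428). The call held under each of 14 alternative settings, with changes between 1.98 and 3.34. Outside high salt the gene was low throughout: the 13 distinct arrays of exercised and control hearts ran from 49.1 to 111, with a median of 72.0.

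The earlier salt hearts were uneven for Spp1. In the high salt group of 6 weeks the values were 501, 86.0 and 121, beside 49.1, 57.0 and 80.9 in exercised hearts and 111, 72.8 and 76.1 in controls. A single array, the 6-week salt array numbered 1, stood inside the range of the 15-week salt group, and the other two lay near the controls. Against control the 6-week change of 0.82 ± 0.44 did not pass (limma, adjusted p = 0.222). Against exercise the groups did not overlap, yet the change of 1.13 ± 0.44 did not pass either (limma, adjusted p = 0.575). At 3 weeks the salt arrays read 58.9, 100 and 137, against 61.8 in the control, 72.0 in the exercise array and 86.6 and 71.4 in the arrays under both labels. Those groups overlapped, and the change was 0.26 ± 0.38 (limma, adjusted p = 0.927).

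In the high salt groups the mean intensity of Spp1 was 98.6 ± 39.1 at 3 weeks, 236 ± 230 at 6 weeks and 804 ± 467 at 15 weeks (SD, n = 3 each). The step between 3 and 6 weeks did not pass (0.72 ± 0.44, limma adjusted p = 0.99984). No member was called in that comparison, beside 0.0763% of all tested probe sets. An unadjusted limma p under 0.05 was reached by 3 of the 18 members, and by 303 of all 6555 tested probe sets. High salt at 15 weeks exceeded high salt at 6 weeks by 1.75 ± 0.44 (limma, adjusted p = 0.0296), although the 6-week array at 501 lay above the 15-week array at 339.8. That call was lost in 7 of 14 settings, with adjusted p up to 0.190, among them leaving out either of 2 salt arrays at 15 weeks (numbers 1 and 3) or either of 2 at 6 weeks (numbers 2 and 3). Of the 18 probe sets 3 were called in this comparison, 1 higher and 2 lower, beside 3.19% of all tested (1.65% higher and 1.54% lower). The salt effect at 15 weeks minus that at 6 weeks, a test of the difference between the weeks, was 2.03 ± 0.62 and did not pass (limma, adjusted p = 0.114). Without the 6-week salt array numbered 1 it was 2.67 with an adjusted p of 0.00968, and without the 15-week salt array numbered 2 it was 2.52 with an adjusted p of 0.0296. Those arrays held the highest 6-week and the lowest 15-week salt value of Spp1. In the rest of the 20 settings the difference was not called.

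**Figure D2:**
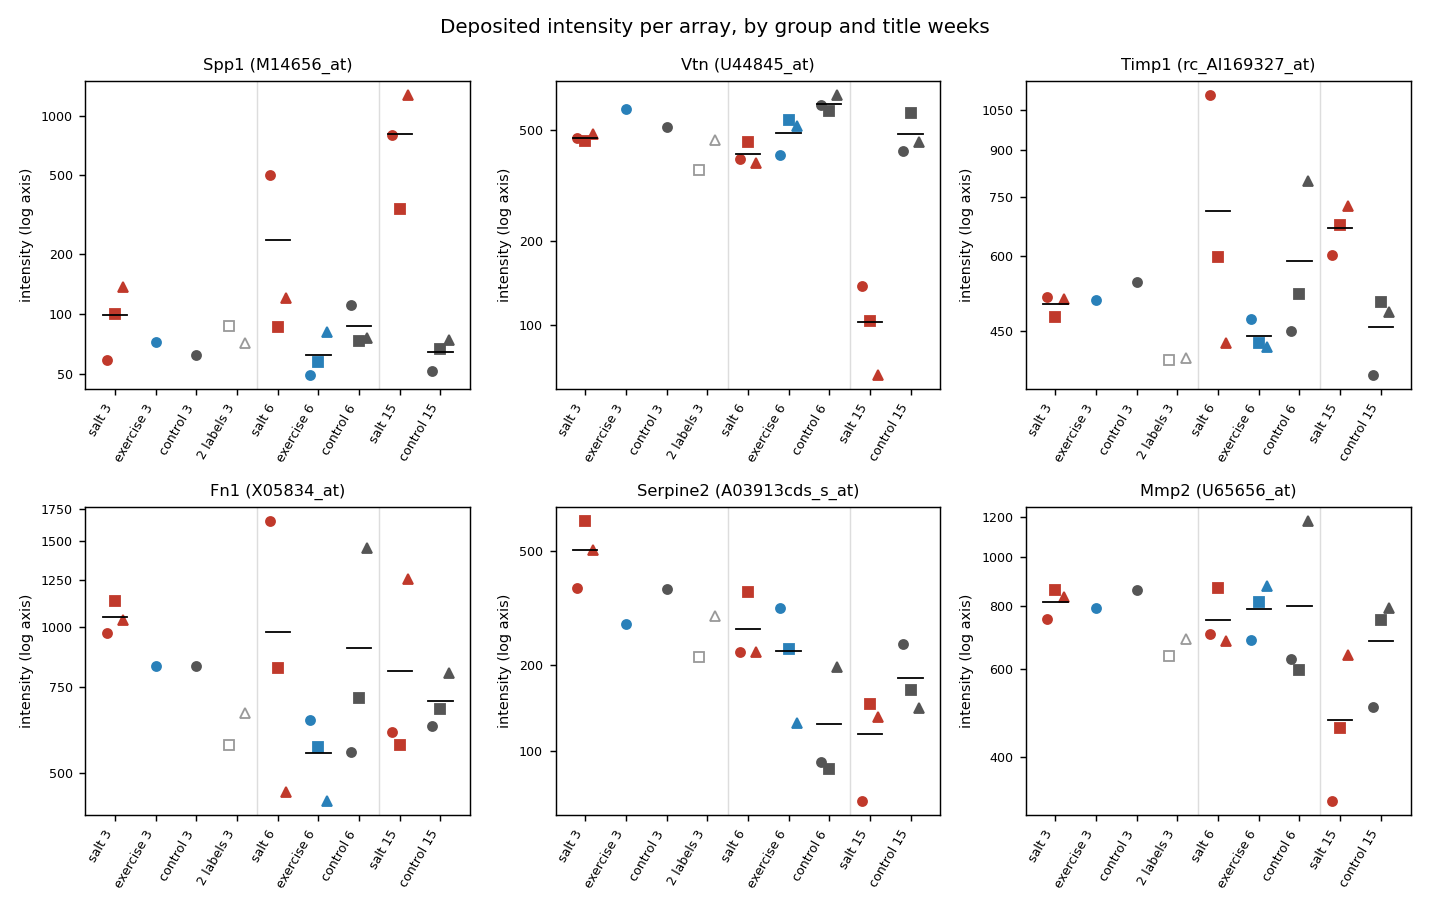
Deposited intensity of 6 probe sets on each distinct array (log axis, each panel with its own scale), by group and title weeks; red is high salt, blue exercise and dark grey control, open grey marks the 2 arrays under both 3-week labels, circles, squares and triangles are replicate numbers 1, 2 and 3, and bars are means of groups of 3. Spp1 in the 15-week salt group lies at 339.8 to 1273 and Vtn at 65.9 to 138, both clear of the 15-week controls, while Timp1 and Fn1 are highest on the 6-week salt array numbered 1, at 1112 and 1652, and Mmp2 on the 6-week control array numbered 3, at 1179.

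Vtn, which encodes vitronectin, fell in the 15-week salt hearts. U44845_at read 138, 104 and 65.9 on high salt at 15 weeks, against 419, 576 and 455 in the controls of 15 weeks. The 3 salt arrays were the lowest of all 22, and the 19 others lay between 358 and 669. The log2 fold change was -1.90 ± 0.20 (limma, adjusted p = 7.16e-06), and it was called in each of 14 settings, from -2.17 to -1.30.

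At 6 weeks Vtn read 395, 453 and 379.6 on high salt, 408, 544 and 515 with exercise and 613, 583 and 669 in controls. Both treated groups lay below every control array, but neither change passed the test: -0.56 ± 0.20 for salt (limma, adjusted p = 0.0647) and -0.33 ± 0.20 for exercise (limma, adjusted p = 0.331). The 6-week control mean of 622 ± 43.4 was the highest of any group, beside the raised GAPDH ratios of those arrays. At 3 weeks the salt arrays, at 469.5, 456 and 482.5, lay within the 358 to 595.5 of the 4 arrays without salt. That change was -0.01 ± 0.19 (limma, adjusted p = 0.993).

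By mean intensity Vtn stood at 469 ± 13.2, 409 ± 38.9 and 102 ± 35.8 in the high salt groups of 3, 6 and 15 weeks (SD, n = 3 each). High salt at 15 weeks lay below high salt at 6 weeks by -1.69 ± 0.20 (limma, adjusted p = 3.47e-05), without overlap and in each of 14 settings. The salt effect at 15 weeks minus that at 6 weeks was -1.34 ± 0.28 (limma, adjusted p = 0.0167), the only member called in that test, beside 1.6% of all probe sets (0.793% higher and 0.809% lower). It was lost in 3 of 20 settings: with GAPDH 3'/5' ratios entered as covariate (adjusted p = 0.0527), with only the groups compared in the fit (0.0699) and without the 6-week control array numbered 2 (0.0558).

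Fibronectin, encoded by Fn1, had 5 probe sets, 4 of them tested, and those 4 did not move together. X05834_at read 606, 571 and 1253 on high salt at 15 weeks, against 623, 679 and 803 in controls. The groups overlapped, 1 salt array stood above the rest, and the change was 0.12 ± 0.37 (limma, adjusted p = 0.929). At 3 weeks the same probe set read 970.2, 1132 and 1033 on salt, against 570.1 to 830.4 on the 4 arrays without salt. All salt arrays lay above those, but the change of 0.52 ± 0.33 did not pass (limma, adjusted p = 0.757).

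The Fn1 probe set X05831cds_at read 62.8, 109 and 72.0 on high salt at 15 weeks, against 26.1, 20.5 and 21.0 in controls of 15 weeks. The groups did not overlap, and the rise of 0.94 ± 0.27 passed (limma, adjusted p = 0.0392). It was lost in 9 of 14 settings, including the omission of any 1 of the 6 arrays compared (adjusted p 0.0580 to 0.124) and the title number as a replicate block (adjusted p = 0.0551). Its mean over the 20 arrays was 47.1, and without the 15-week salt arrays 41.1, under the filter threshold of 41.9. The other two tested Fn1 probe sets were not called at 15 weeks: U82612cds_at had -0.26 ± 0.20 (limma, adjusted p = 0.521), and U82612cds_g_at had 0.38 ± 0.35 (limma, adjusted p = 0.636).

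At 6 weeks U82612cds_g_at read 199.5, 256.5 and 49.0 on high salt, 132, 108 and 57.4 with exercise and 42.9, 67.0 and 41.9 in controls. A pair of salt arrays lay above all others and the third within the controls' range. The change against control was 1.04 ± 0.35 (limma, adjusted p = 0.0533), and without that low salt array, numbered 3, it was 1.57 with an adjusted p of 0.00608. With all 3 salt arrays it was also called with a pseudocount of 160 (0.58, adjusted p = 0.0460), after quantile normalization (1.17, adjusted p = 0.0202), with the title number as a replicate block (adjusted p = 0.0280) and with all 24 columns (adjusted p = 0.0264). In the rest of the 15 settings it was not called, among them the GAPDH covariate and the controls of 3 and 15 weeks. The 6-week controls compared here had the raised GAPDH ratios. M28259cds_at, with a mean of 26.6, was not tested. Over the 22 arrays the 4 tested Fn1 probe sets hardly followed one another, with Pearson r between pairs from -0.20 to 0.36, and they gave no common direction.

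Cd44, the hyaluronan receptor that also binds osteopontin, passed the test in no comparison. M61875_s_at read 109, 50.2 and 98.8 on high salt at 15 weeks, against 83.7, 121 and 192 in controls, and A30543cds_s_at read 47.2, 39.6 and 48.8 against 24, 67.5 and 34.2. Both pairs of groups overlapped, and the changes were -0.44 ± 0.37 and 0.09 ± 0.34 (limma, adjusted p = 0.593 and 0.941). At 6 weeks A30543cds_s_at showed 0.62 ± 0.34 with salt and 0.67 ± 0.34 with exercise against the shared controls, and neither passed (limma, adjusted p = 0.241 and 0.247). The remaining probe sets, AF014365_i_at and AF014365_s_at, had means of 1.13 and 11.4 and were not tested.

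SPARC, the collagen-binding protein, had 4 probe sets, 3 of which were lower in the 15-week salt hearts. rc_AA891204_s_at read 696, 606 and 681 on high salt at 15 weeks, against 2558, 1788 and 1785 in controls. Y13714_at read 1979, 2758 and 1725, against 6863, 6335 and 4316. For both probe sets no salt array came near a control array: the changes were -1.55 ± 0.24 (limma, adjusted p = 0.000454) and -1.42 ± 0.28 (limma, adjusted p = 0.00325), called in each of 14 settings.

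A further Sparc probe set, rc_AA946313_s_at, read 1322, 817 and 1262 on high salt at 15 weeks, against 1646, 3451 and 2275 in controls. The groups did not overlap and the change was -1.06 ± 0.28 (limma, adjusted p = 0.0272), a call lost in 4 of 14 settings. Those were the fit of only the groups compared and the omission of control array 2 (-0.78, adjusted p = 0.184), control array 3 or salt array 2. The fourth Sparc probe set, rc_AA892248_at, was not called, with 13365, 12390 and 15957 against 15900.4, 19476 and 17151. Its groups overlapped and its change of -0.33 ± 0.18 did not pass (limma, adjusted p = 0.319).

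The Sparc probe sets differed in how they followed one another over the 22 arrays. rc_AA891204_s_at and Y13714_at had a Pearson r of 0.94, rc_AA946313_s_at had 0.70 and 0.67 with them, and rc_AA892248_at had 0.23 to 0.46 with the other 3. The last read 12247 to 22025 over all arrays, at percentile 99.3 of mean intensity among probe sets, and whether that is near the top of the scanner's range is not given in the sources used here.

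**Figure D3:**
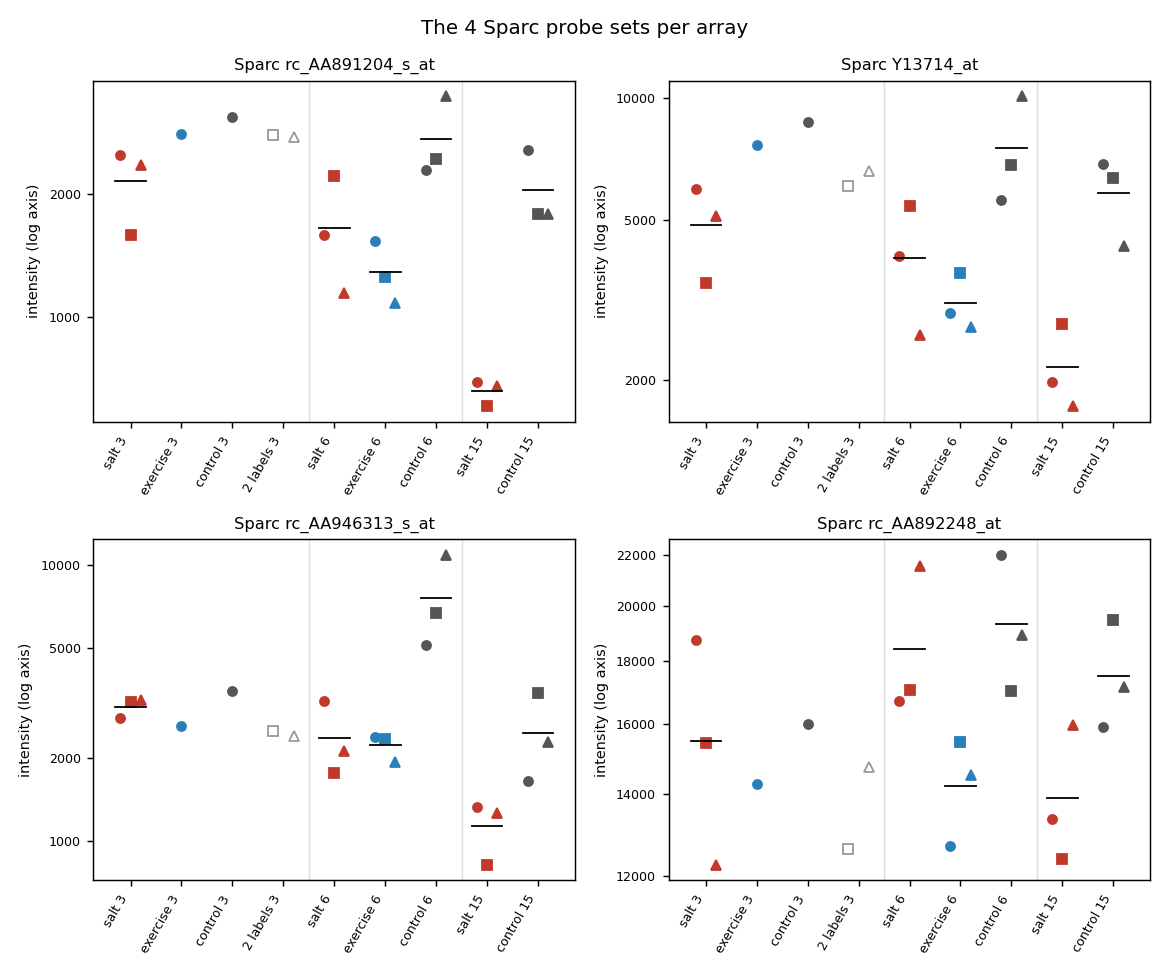
Deposited intensity of the 4 Sparc probe sets on each distinct array (log axis, each panel with its own scale), with groups, colours, markers and bars as in the plot of 6 probe sets by array. The 15-week salt arrays lie lowest for rc_AA891204_s_at, at 606 to 696, and the 6-week controls lie highest for rc_AA946313_s_at, at 5123 to 10923. For rc_AA892248_at the arrays of both groups overlap those of others. Its group means are still lowest in 15-week salt hearts, at 13904, and highest in 6-week controls, at 19333.

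At 6 weeks the same 3 Sparc probe sets were called lower in both treated groups. rc_AA946313_s_at read 3211, 1762 and 2119 on high salt, 2383, 2339 and 1938 with exercise and 5123, 6704 and 10923 in controls. The 3 control arrays were the highest of all 22, the other 19 lay between 817 and 3509, and the order of the controls was that of their GAPDH ratios of 1.58, 2.48 and 3.99. The changes were -1.64 ± 0.28 with salt (limma, adjusted p = 0.00109) and -1.69 ± 0.28 with exercise (limma, adjusted p = 0.00189). With GAPDH 3'/5' ratios in the model they were -0.54 and -0.52 and were not called (adjusted p = 0.706 and 0.839). With the controls of 3 and 15 weeks in place of those of 6 weeks they were -0.18 and -0.23, and were not called either.

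Y13714_at read 4068, 5407 and 2587 on high salt at 6 weeks, 2939, 3696 and 2711 with exercise and 5607, 6828 and 10109 in controls. rc_AA891204_s_at read 1592, 2214 and 1145 on salt, 1535.5, 1254 and 1083 with exercise and 2285.5, 2439 and 3467 in controls. In each case every treated array lay below every control array. For high salt the changes were -0.91 ± 0.28 and -0.74 ± 0.24 (limma, adjusted p = 0.0332 and 0.0453), and for exercise they were -1.23 ± 0.28 and -1.05 ± 0.24 (limma, adjusted p = 0.0101 and 0.0105). None of these 4 calls held with the GAPDH covariate or against the controls of 3 and 15 weeks. The estimates were smaller in size and kept their sign. With the covariate Y13714_at was at -0.47 ± 0.46 for salt and -0.76 ± 0.48 for exercise, and rc_AA891204_s_at at -0.60 ± 0.40 and -0.90 ± 0.42, where the SE without it was 0.28 and 0.24 (limma, adjusted p from 0.680 to 0.817). Against the other controls Y13714_at was at -0.72 ± 0.27 for salt and -1.03 ± 0.27 for exercise, and rc_AA891204_s_at at -0.48 ± 0.24 and -0.79 ± 0.24 (limma, adjusted p from 0.224 to 0.443). With the title number as a replicate block the salt call of rc_AA891204_s_at was lost (limma, adjusted p = 0.0540). Of 15 settings, the salt calls held in 7 for Y13714_at and 6 for rc_AA891204_s_at, and the exercise calls in 11 for each; omitting 1 array gave adjusted p up to 0.236 for salt and up to 0.0730 for exercise.

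Within the salt groups the GAPDH ratios lay between 1.04 and 1.17 at 6 and 15 weeks. Of the Sparc probe sets only rc_AA891204_s_at was called lower at 15 than at 6 weeks. rc_AA891204_s_at at 15 weeks lay below its 6-week values by -1.22 ± 0.24 (limma, adjusted p = 0.00470), in each of 14 settings. For rc_AA946313_s_at the difference was -1.02 ± 0.28 (limma, adjusted p = 0.0567), and for Y13714_at it was -0.85 ± 0.28 (limma, adjusted p = 0.126). For rc_AA892248_at it was -0.40 ± 0.18 (limma, adjusted p = 0.327). In controls the mean of rc_AA891204_s_at was also lower at 15 weeks, 2044 against 2731 at 6 weeks. That difference was not tested and includes the controls with raised GAPDH ratios. At 3 weeks both Y13714_at and rc_AA891204_s_at were lower on every salt array than on the 4 arrays without salt, at -0.60 ± 0.25 and -0.43 ± 0.21, but neither passed (limma, adjusted p = 0.543 and 0.613). The sign was the other way, with overlap, for rc_AA946313_s_at (0.17 ± 0.25) and rc_AA892248_at (0.09 ± 0.16), and neither was called (limma, adjusted p = 0.929 and 0.947). The test of the salt effect at 15 weeks against that at 6 weeks passed for none of the 4 (changes of -0.82 to 0.58, limma adjusted p from 0.25 to 0.661).

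Timp1, the inhibitor that binds most matrix metalloproteinases, read 602, 675 and 727 at rc_AI169327_at on high salt at 15 weeks, against 379, 503 and 484 in controls. The salt arrays all lay higher, but the change of 0.52 ± 0.26 did not pass (limma, adjusted p = 0.274). rc_AI169327_g_at read 117, 54.2 and 276 against 29.5, 66.0 and 52.0, which overlap, with 0.93 ± 0.60 (limma, adjusted p = 0.432). At 6 weeks the salt array numbered 1 had the highest value of all 22 at both probe sets, 1112 and 505, where the other two salt arrays read 597.5 and 429 at rc_AI169327_at. High salt exceeded exercise at 6 weeks by 0.55 ± 0.26 for rc_AI169327_at, which did not pass (limma, adjusted p = 0.696).

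Timp2, an inhibitor that also helps to activate gelatinase A at the cell surface, passed the test in no comparison. S72594_s_at read 1642, 1852 and 3335 on high salt at 15 weeks, against 2086, 2698 and 2679.6 in controls. The groups overlapped, with a change of -0.19 ± 0.22 (limma, adjusted p = 0.734). At 6 weeks the intensities averaged 1986 ± 227 on salt, 2059 ± 118 with exercise and 2678 ± 577 in controls (SD, n = 3 each). Both treated groups lay under all controls, at -0.41 ± 0.22 and -0.35 ± 0.22, and neither passed (limma, adjusted p = 0.228 and 0.345).

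Mmp2, gelatinase A, had a pair of probe sets that pointed opposite ways. U65656_at read 327, 458 and 639 on high salt at 15 weeks, against 504, 748 and 792.5 in controls, while X71466_at read 268, 449.7 and 222, against 169, 142 and 230.1. Each pair of groups overlapped. The changes were -0.51 ± 0.25 (limma, adjusted p = 0.278) and 0.65 ± 0.24 (limma, adjusted p = 0.110). Over the 22 arrays the pair had a Pearson r of -0.35, so the array gave no single direction for Mmp2. At 6 weeks the changes with salt were -0.03 ± 0.25 and 0.12 ± 0.24, and with exercise 0.04 ± 0.25 and 0.34 ± 0.24, none of them called (limma, adjusted p from 0.395 to 0.960).

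Serpine2, which encodes protease nexin-1, an inhibitor of thrombin and plasminogen activators, passed the test in no comparison, though its values on salt were ordered by week. A03913cds_s_at read 372, 637 and 505 on high salt at 3 weeks, against 367 in the control, 276 in the exercise array and 212 and 295 in the arrays under both labels. The salt arrays lay above the others, the lowest of them by a narrow margin, and the change of 0.72 ± 0.29 did not pass (limma, adjusted p = 0.493). At 6 weeks the values were 221, 359.6 and 221.5 on salt, 317, 226 and 125 with exercise and 91.3, 86.3 and 195.5 in controls. Salt stood above control without overlap at 0.94 ± 0.32, just short of the threshold (limma, adjusted p = 0.0542). It was called after quantile normalization (1.10, adjusted p = 0.0195), with all 24 columns as deposited (adjusted p = 0.0331) and without the control array numbered 3 (1.23, adjusted p = 0.0315). Under the rest of the 15 settings it was not called, among them the GAPDH covariate and the controls of 3 and 15 weeks. The 6-week controls in this comparison were those with raised GAPDH ratios.

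At 15 weeks Serpine2 read 66.5, 146 and 131 on salt, against 236, 163 and 141 in controls. The groups overlapped and the sign was the other way, at -0.53 ± 0.32 (limma, adjusted p = 0.397). Its mean on salt was 505 ± 133 at 3 weeks, 267.5 ± 79.8 at 6 weeks and 115 ± 42.3 at 15 weeks (SD, n = 3 each), and neighbouring weeks did not overlap. Neither step passed the test: 6 against 3 weeks was -0.83 ± 0.32 (limma, adjusted p = 0.989), and 15 against 6 weeks was -1.0 ± 0.32 (limma, adjusted p = 0.113). Without salt the mean was 288 ± 63.8 at 3 weeks (SD, n = 4). In controls it was 124 ± 61.7 at 6 weeks and 180 ± 49.8 at 15 weeks, and in exercised hearts 222.5 ± 96.1 at 6 weeks (SD, n = 3 each). Means without salt were thus also lower at 6 than at 3 weeks, a difference that was not tested. The 3-week arrays mixed control and exercise labels, and the 6-week controls had raised GAPDH ratios. The salt effect at 15 weeks minus that at 6 weeks was -1.46 ± 0.45 (limma, adjusted p = 0.117).

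A few arrays carried many of the extreme values. The 6-week control array numbered 3, with the highest GAPDH ratio, held the highest of the 22 values at 7 of the 18 tested probe sets. The 6-week salt array numbered 1 held it at 3, which were both Timp1 probe sets and Fn1 X05834_at with 1652, and it was also the array with Spp1 at 501. The lowest values fell to the 3 salt arrays of 15 weeks at 7 of the 18, with 3, 2 and 2 each. Probe sets of the same gene are counted separately here. Extremes over all tested probe sets were not counted, so these counts have no background share beside them and may not be particular to these genes.

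Other genes of the matrix were read from 4 lists, each gene at its brightest tested probe set. Of 23 other matrix ligands and glycoproteins, 5 were lower and none higher on high salt at 15 weeks, with a median log2 fold change of -0.20, where 3.84% of all 3828 genes were lower and the median was -0.05. They were Sparcl1, a relative of SPARC (-0.82 ± 0.18), the elastic fibre proteins Fbln5 (-1.10 ± 0.24) and Efemp1 (-1.27 ± 0.29), the elastin and collagen cross-linking enzyme Loxl1 (-1.58 ± 0.37) and Lum, a collagen-binding proteoglycan that is also among the fibroblast markers (limma, adjusted p from 0.00675 to 0.0171). Over all genes 3% were higher, and the counts of 1 in the next lists are near that share. Of 19 adhesion receptors 1 was higher, Itgb1, the integrin beta chain that pairs with many fibronectin-binding alpha chains (1.13 ± 0.27, limma adjusted p = 0.0142). Of 17 proteases the lysosomal Ctsl was higher (0.83 ± 0.22, limma adjusted p = 0.0219), and none of 10 inhibitors was called.

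In the high salt group of 6 weeks 2 of the 23 ligands were higher and 3 lower than in control, 2 of 19 receptors higher, 1 of 17 proteases higher and 1 lower, and 1 of 10 inhibitors higher, beside 4.68% higher and 8.59% lower over all genes. Efemp1 was among the higher ones, at 0.996 ± 0.287 (limma, adjusted p = 0.0253), and its salt effect at 15 weeks minus that at 6 weeks was -2.26 ± 0.41 (limma, adjusted p = 0.00549). Itgav, the alpha chain of the vitronectin receptor, was at 1.06 ± 0.28 (limma, adjusted p = 0.0159). With exercise 4 of the 23 ligands were lower, Fbln5, Agrn, Eln and Loxl1, beside 3% higher and 3.63% lower over all genes. Of 19 receptors 1 was higher, the fatty acid and thrombospondin receptor Cd36 (2.29 ± 0.44), and of 17 proteases 1, the lysosomal Ctsd (0.54 ± 0.16). Timp3, a matrix-bound inhibitor, was the 1 of 10 inhibitors that was higher (0.76 ± 0.23, limma adjusted p = 0.0450). Cd36, Ctsd, Fbln5 and Agrn were also called with salt at 6 weeks, in the same directions. Their salt changes were 2.51 ± 0.44, 0.73 ± 0.16, -0.97 ± 0.24 and -0.97 ± 0.24 (limma, adjusted p from 0.00113 to 0.0112). These 6-week values share the controls with raised GAPDH ratios.

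In whole tissue, fewer cells of a type and less RNA per cell cannot be told apart, so markers of other cell types are given beside the 15-week changes. Of 10 fibroblast markers 4 were lower, Col3a1 (-3.04 ± 0.32), Col1a2 (-1.59 ± 0.28), Col1a1 (-1.44 ± 0.29) and Lum (-1.22 ± 0.30), and their summed intensity was 13896 to 25463 on salt arrays against 28635 to 39559 on controls. None of 7 macrophage markers was called, with sums of 3031 to 5509 on salt against 2354 to 3663 on controls. Of 8 hepatocyte markers none was called, and the sums were 1510 to 1999 against 1419 to 1670. Red cell genes were higher at 3 of 4, with sums of 52814 to 71701 against 30772 to 44489. Of 8 smooth muscle and pericyte markers 1, Kcnj8, was lower, with sums of 15279.5 to 17242 against 12072.5 to 15912. The brightest gene in that sum was Des, with a mean of 8808, and the median log2 fold change of the 8 was -0.42, against -0.05 over all genes. None of 6 endothelial markers was called, but their sums did not overlap, at 1451 to 1752 on salt against 2140 to 2703 on controls. None of 11 cardiomyocyte or 5 T and B cell markers was called, and no marker probe set was at 0 on any array. Beside the 6-week Sparc changes with salt, none of 10 fibroblast markers was called, 2 of 6 endothelial markers were lower, 1 of 7 macrophage markers (Ptprc, -0.85 ± 0.26) was lower, 2 of 8 smooth muscle and pericyte markers were higher and 3 lower, 2 of 11 cardiomyocyte markers were higher and 1 of 5 T and B cell markers (Cd5, 1.22 ± 0.24) was higher. With exercise 1 of 10 fibroblast and 2 of 6 endothelial markers were lower, 1 of 8 smooth muscle and pericyte markers was higher and 3 lower, and 2 of 11 cardiomyocyte and 1 of 5 T and B cell markers were higher. No hepatocyte or red cell marker was called in either comparison, and no macrophage marker with exercise. Over all genes 4.68% were higher and 8.59% lower with salt, and 3% higher and 3.63% lower with exercise. The part of these cell types in the changes of Spp1, Vtn and Sparc was not tested.

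The probe sets whose log2 values followed Spp1 most closely over the 22 arrays, among 5355 candidates, were those of Akip1, Reg3b and Tgm1, with Pearson r of 0.92, 0.87 and 0.86. For Vtn they were Dbn1, Col15a1 and Nmrk2, with 0.92, 0.90 and 0.90. These are descriptions over arrays that share their groups.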

How the data were processed

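Total RNA of 24 left ventricle samples was measured on an Affymetrix rat array. The deposited values are linear intensities for 8799 probe sets, 1 per column. How the authors summarised and scaled these intensities is not given in the sources used here. Column means after trimming 2% at each end lay between 500.767 and 501.021, so the values were used as they stood. The array's own annotation, as provided, gave 1 symbol for 7018 probe sets, several for 308 and none for 1473; only probe sets with 1 symbol were named. No array coordinates were used.

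From these values, 59 control probe sets were removed. The log2 of intensity plus 40 (the 25th percentile of all values, to 1 digit) was fitted with limma 3.58.1 in R 4.3.3 with 1 mean per title group and an intensity trend. Probe sets with a mean under the 25th percentile (41.9) were not tested. The fit over 20 arrays had 12 residual degrees of freedom. Exercise arrays 2 and 3 of 3 weeks equalled control arrays 2 and 3 of 3 weeks in all 8799 values, where other pairs shared at most 31. The 3-week salt comparison used all 22 distinct arrays, with 15 degrees of freedom. On simulated data for the 15-week salt comparison (6555 probe sets), 49 of 100 changes of log2 size 1 and 96 of 100 of size 2 were recovered, with 10 false calls. A total of 8 comparisons were made, and the number of arrays limits their precision.

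Alternatives were pseudocounts of 10 and 160, no filter, quantile normalization, the log2 GAPDH ratio as a covariate, only the groups compared, the title number as a block, all 24 columns, other controls, and each array left out. The genes, lists and tests were chosen with earlier results of these data known. All probe sets of the 9 symbols are named; in the other lists at most 4 called genes of smallest p per list and comparison are named, except that Lum, the fifth called ligand at 15 weeks, was added after its values were seen. The genes most like Spp1 and Vtn are the 3 of highest Pearson r. Same-numbered arrays had correlated deviations of -0.23 to 0.24, not over 0.1 for every pair, so the numbers were not taken to pair the arrays. Promoters are from the RefSeq table of build GRCr8.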

Additional observations from a re-analysis of the deposited data

Results flagged for a closer look

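On rc_AA891204_s_at of Sparc, 1 of the 4 arrays without high salt at 3 weeks stood away from the others. The control array with a single label read 3091, against 2759 to 2806 on the other three, a gap of 0.854 of the whole range on the log2 scale, above Dixon's critical value for 4 values. The same check was run on 18 probe sets, and chance alone marks about 1 in 20 groups. The salt effect on Vtn differed between the weeks: at 15 weeks minus 6 weeks it was -1.34 ± 0.28 on the log2 scale (limma, adjusted p = 0.0167), with intensities of 102 ± 35.8 on salt and 483 ± 82.5 in control at 15 weeks, and 409 ± 38.9 on salt and 622 ± 43.4 in control at 6 weeks (SD, n = 3 each). That call was lost with the GAPDH covariate (limma, adjusted p = 0.0527), with only the groups compared (0.0699) and without the 6-week control array numbered 2 (0.0558). The 6-week controls had raised GAPDH ratios.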

How the results depend on the processing

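The calls for Spp1, Vtn and Sparc rc_AA891204_s_at and Y13714_at at 15 weeks held under all 14 alternatives run for them, and the number of member probe sets called there was 6, and 4 to 5 when 1 array was left out, 4 with only the groups compared and 5 with a pseudocount of 160. At 6 weeks the count of 3 for high salt was 5 with a pseudocount of 160, after quantile normalization and with all 24 columns, 1 without a filter and with only the groups compared, and 0 with a GAPDH covariate and against the controls of 3 and 15 weeks. The exercise count of 3 was 0 under those last 2 settings. The count for the difference between salt effects, 1, was 0 with the GAPDH covariate and with only the groups compared. Leaving out 1 array gave 1 to 3 for salt at 6 weeks, 1 to 3 for exercise, 2 to 3 for salt at 15 against 6 weeks and 0 to 2 for the difference, and 0 throughout for the other comparisons. Salt at 6 weeks fell to 1 without control array 2 or salt array 1, exercise to 1 without control or exercise array 3, and the difference was 0 without 6-week control array 2 and 2 without 15-week salt array 2 or 6-week salt array 1. With the title number as a replicate block the counts were 5, 3, 3, 0, 0, 0, 3 and 1. They stand in the order high salt against control at 15 and 6 weeks, exercise against control, salt against exercise, salt at 3 weeks, salt at 6 against 3 and 15 against 6 weeks, and the difference. Under the block Fn1 X05831cds_at lost its call at 15 weeks (adjusted p = 0.0551), and for salt at 6 weeks Sparc rc_AA891204_s_at lost its call (0.0540) while Fn1 U82612cds_g_at gained one (0.0280). It changed no other call of a member.

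Over all probe sets, only the groups compared gave 269 calls in place of 472 at 15 weeks, 388 in place of 942 for salt at 6 weeks, 252 in place of 513 for exercise, 100 in place of 10 for salt at 3 weeks, 3 in place of 5 for salt at 6 against 3 weeks, 107 in place of 209 for 15 against 6 weeks, 37 in place of 105 for the difference and 2 in place of 1 for salt against exercise. With the GAPDH covariate the counts were 15 for salt at 6 weeks, 0 for exercise, 4 for salt against exercise and 34 for the difference. Against other controls they were 19 and 3 at 6 weeks. With all 24 columns exercise had 775, salt against exercise 3 and the difference 189. A pseudocount of 160 gave 2 for salt against exercise and 8 for salt at 6 against 3 weeks. Without a filter salt against exercise had 0 and salt at 3 weeks 6, quantile normalization gave 0 for salt against exercise, and salt against the control array of 3 weeks with 1 label gave 0. Leaving out 1 array gave 218 to 547 at 15 weeks, 454 to 1231 for salt at 6 weeks, 210 to 859 for exercise, 0 to 7 for salt against exercise, 0 to 8 at 3 weeks, 2 to 10 for 6 against 3 weeks, 141 to 194 for 15 against 6 weeks and 55 to 298 for the difference. The fits of only the groups compared and those with an array left out use fewer arrays, and the cause was not tested for any setting. Quantile normalization moved the all-probe median for salt at 6 weeks by 0.10, and the share of its calls that were higher was 56.1% in place of 46.2%. For single probe sets, 2111 values kept their side of the threshold, 52 lost a call and 15 gained one, and no called value changed sign.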
